A study of Mus musculus with 2 samples.

Results

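The 9 genes described here, Ifi27, Irf9, Ifitm3, Bst2, Ifit3, Oasl2, Irf7, Ifit1 and Isg15, were listed as interferon response genes. That name is used for genes that cells switch on when they sense interferon. The 9 genes were picked by symbol out of 55536 annotated genes, and all 9 symbols matched 1 gene row each. Total RNA was sequenced from hippocampal tissue of male B6CASTF1/J mice, the hybrid offspring of C57BL/6J and CAST/EiJ parents, aged 18 to 20 months. The labels give a single group with 2 biological replicates, replicate 1 and replicate 2, each made from 300 ng of RNA. No treatment, infection or genetic change was given for either. The replicates are separate pieces of tissue under a shared donor record. Whether each is from its own animal is not stated, so the spread between them may be technical. With 2 libraries in 1 group no test between conditions could be made, and the values below are a description.

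Interferons are secreted proteins that warn neighbouring cells of viral nucleic acid. Type I interferons bind the receptor formed by Ifnar1 and Ifnar2, whose kinases Jak1 and Tyk2 phosphorylate STAT proteins. These join Irf9 to form ISGF3, a transcription factor that binds the interferon-stimulated response element (ISRE) in front of target genes and raises effectors such as Ifit and Oas proteins. Irf7 is both a target of ISGF3 and a factor that drives further interferon transcription. In the brain, microglia, astrocytes, neurons and endothelial cells can all respond, and the response is studied in the ageing brain.

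The sequences below are shown because the ISRE is the element through which ISGF3 acts, and most of these genes carry its core close to their start site. The windows are RefSeq's, on build GRCm38.p6, and run from 250 bases before to 50 bases after a start site. The core was searched as GAAANNGAAA, or TTTCNNTTTC on the other strand, and overlapping matches were counted separately. A match was found in 3.44% of all 32851 windows, and at least 2 matches in 0.225%. A window was given for 8 of the 9 genes, none for Ifi27, and 5 of these 8 held a match. Isg15 held 3 overlapping matches, with first bases 78, 72 and 66 bases before the start. Ifit1 held 2, at 104 and 85 bases before the start, and Ifit3 held 2, at 156 and 122 bases before it. Bst2 held 2 overlapping matches at 130 and 124 bases before the start. In Ifitm3 both matches lay after the start, at bases 3 and 20. The stretches that lie before the start are printed below, 5′ to 3′ in the direction of the gene, with 20 bases on either side and the matches in capitals. They come from chr4:156200855-156200916 on the minus strand for Isg15, chr19:34640765-34640833 on the plus strand for Ifit1, chr19:34583353-34583436 on the plus strand for Ifit3 and chr8:71537567-71537622 on the minus strand for Bst2.
Isg15: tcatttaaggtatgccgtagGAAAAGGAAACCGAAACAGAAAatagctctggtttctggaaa
Ifit1: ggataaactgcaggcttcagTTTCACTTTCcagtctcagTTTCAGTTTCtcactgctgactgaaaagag
Ifit3: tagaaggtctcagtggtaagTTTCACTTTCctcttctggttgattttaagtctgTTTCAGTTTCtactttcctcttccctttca
Bst2: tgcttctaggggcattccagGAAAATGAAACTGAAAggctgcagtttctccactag
The Ifit3 and Ifit1 stretches share the same pair of matches in the same order and on the same strand, TTTCACTTTC followed by TTTCAGTTTC. Isg15 and Bst2 carry the core on the strand of the gene, in runs where one match begins inside another. No match was found in the window of Irf7, the window of Oasl2 or either of the 2 windows of Irf9, which says only that these letters do not occur there. Among 63 other genes of the pathway that had a window, 20 held a match, 31.7%, where 3.99% of all genes with a window did. The interferon genes themselves were not among the genes searched. The GAS core TTCNNNGAA, which STAT dimers bind, was found in 8.30% of all windows and in those of Ifitm3 and Bst2, where it overlaps the ISRE core. These matches describe the sequence and do not show that a factor was bound.

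**Figure D1:**
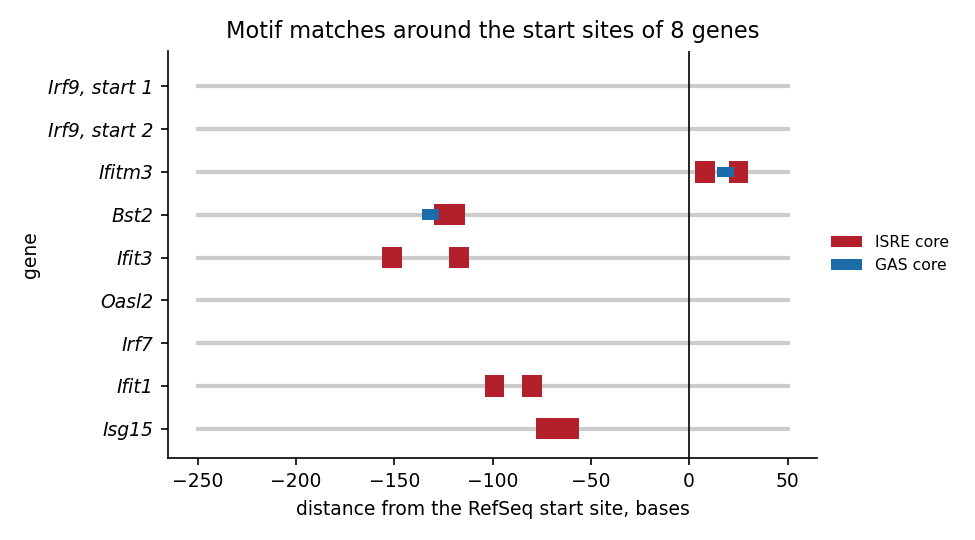
Positions of ISRE core and GAS core matches (bars, drawn to scale) along the RefSeq windows of 8 genes, by distance in bases from the start site at 0. Matches before the start site appear in Bst2, Ifit3, Ifit1 and Isg15, those of Ifitm3 lie after it, and the 2 Irf9 windows, Oasl2 and Irf7 are empty.

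Replicate 1 held 34563482 expected counts on annotated genes, and replicate 2 held 32370292. A gene with 0 counts could therefore have stood as high as 0.0868 CPM (counts scaled to the library's total) in replicate 1 and 0.0927 CPM in replicate 2, which is what 3 counts give. Levels are given in TPM, a share of all transcripts that corrects for length and allows genes to be compared with each other. All 8 hippocampal neuron and regional marker genes were detected, with a summed level of 2871 and 2915 TPM. Genes of the choroid plexus, the epithelium that makes cerebrospinal fluid, set the libraries apart: their summed level was 36.8 TPM in replicate 1 and 698 TPM in replicate 2, and 7 of 7 were higher in replicate 2.

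Interferon response genes ranged widely in level, with Ifi27 far above the rest and Isg15 at the limit of detection. At least 1 TPM in both libraries, the level called detected here, was reached by 5 of the 9: Ifi27, Irf9, Ifitm3, Bst2 and Ifit3. Of all annotated genes 25.7% were detected by this measure, and of the 22028 protein-coding ones 57.5%, so the share among interferon response genes is near that of protein-coding genes. Oasl2, Irf7, Ifit1 and Isg15 stayed under 1 TPM in both libraries, although Oasl2 reached 1.16 and 1.12 by the deposited posterior mean TPM. Of the 7 effector genes 4 were detected, and of the 2 signalling genes 1, Irf9. In bulk tissue, few cells with much of an RNA and many cells with little of it cannot be told apart.

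**Figure D2:**
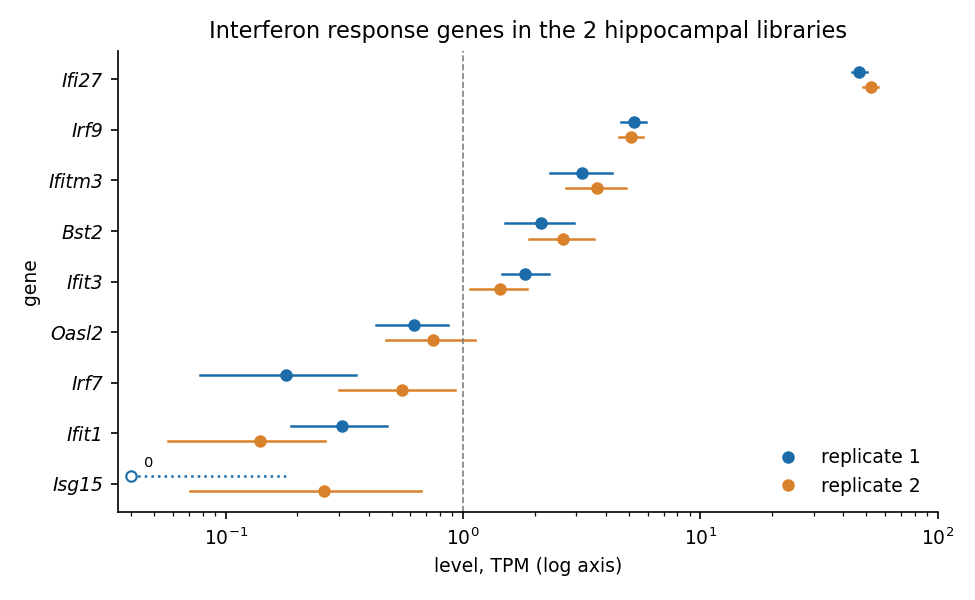
Level of each of the 9 genes in TPM (log axis), replicate 1 in blue and replicate 2 in orange, with lines for the 95% counting interval. The open circle marks the 0 TPM of Isg15 in replicate 1, its dotted line reaches the level that 3 counts would give, and the dashed line marks 1 TPM; only Ifi27 lies above 10 TPM, at 46.8 and 52.1.

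The signalling genes come first. Irf9, the DNA-binding partner of STAT proteins in ISGF3, lies at chr14:55603571-55610030 on the plus strand (mm10). It had 277 expected counts and 5.23 TPM in replicate 1 and 281 expected counts and 5.10 TPM in replicate 2, a mean of 5.17 ± 0.0919 TPM (SD, n = 2). The libraries differed little, and Irf9 stood above 55.4% and 54.9% of protein-coding genes. Its annotated exons overlap those of Rnf31 by 123 bases on the same strand, and Rnf31, at 16.9 and 14.8 TPM, is the more abundant of the pair. Irf7, the factor that amplifies interferon production, lies at chr7:141262706-141266481 on the minus strand. It had 8 counts (95% Poisson interval 3.45 to 15.8) in replicate 1 and 14 counts (7.65 to 23.5) in replicate 2, so the intervals overlap. In TPM it stood at 0.18 and 0.55, a mean of 0.365 ± 0.262 TPM, a wider gap than the counts show. The authors also deposited a posterior mean TPM, which put Irf7 at 0.99 and 1.36. The deposited interval of the TPM, 0.480 to 1.56 in replicate 1 and 0.725 to 2.04 in replicate 2, lies above the TPM of Irf7 in both libraries, so its level is uncertain. Irf7 overlaps Phrf1, at 31.1 and 28.9 TPM, by 45 exonic bases on the opposite strand, and whether the counting used strand is not stated. Irf9 was 29.1 and 9.27 times as abundant as Irf7 in TPM, 16.4 and 12.1 times in the second deposited quantification and 5.57 and 4.0 times by the posterior mean, so the size of this ratio depends on the measure.

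Among the effectors, Ifi27 was the most abundant. It encodes a small membrane protein of mitochondria and the nuclear envelope and lies at chr12:103434211-103440239 on the plus strand. Each library had 675 expected counts, which gave 46.8 TPM in replicate 1 and 52.1 TPM in replicate 2, a mean of 49.5 ± 3.78 TPM. The counts are equal and the TPM is higher in replicate 2. Ifi27 ranked 2042 and 1876 among protein-coding genes, above 90.7% and 91.5% of them. It made up 85.3% and 85.4% of the summed TPM of the 7 effectors. Its level was 14.8 and 14.2 times that of Ifitm3, the next effector. The symbol needs care: RefSeq lists Ifi27l1 as an older name of this gene, and Ifi27 and Isg12 as older names of its neighbour Ifi27l2a. That neighbour had 6 counts in each library, at 0.66 and 0.71 TPM, and Ifi27l2b had 0 counts in both. Under its older names, a report on Ifi27 or Isg12 may concern Ifi27l2a instead. Whether Ifi27 responds to interferon was not tested in these libraries.

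Ifitm3, which blocks the fusion of viruses with cell membranes, lies at chr7:141009586-141010770 on the minus strand. It had 46 counts and 3.17 TPM in replicate 1 and 49 counts and 3.67 TPM in replicate 2, a mean of 3.42 ± 0.354 TPM. Bst2, or tetherin, which holds budding virus at the cell surface, lies at chr8:71534255-71537456 on the minus strand. It had 37 counts and 2.13 TPM in replicate 1 and 42 counts and 2.63 TPM in replicate 2, a mean of 2.38 ± 0.354 TPM. Both genes were lower in replicate 1 by amounts within their counting intervals, and both lie close to the median protein-coding gene, which stood at 3.07 and 3.19 TPM.

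The Ifit proteins bind viral RNA. Ifit3, at chr19:34583531-34588731 on the plus strand, had 75.5 expected counts and 1.83 TPM in replicate 1 and 54.3 expected counts and 1.43 TPM in replicate 2. Ifit1, at chr19:34640871-34650009 on the plus strand, had 20.1 expected counts and 0.31 TPM in replicate 1 and 8.46 expected counts and 0.14 TPM in replicate 2. Both were higher in replicate 1, and Ifit3 was 5.90 and 10.2 times as abundant as Ifit1. Whether the motif matches bear on these levels was not tested. Ifit3 shares 41.1% of its 75-base windows with the near-identical Ifit3b, so the split of reads between them is uncertain, and Ifit3b was listed at 0.89 and 0.84 TPM. Ifit1 shares 5.19% of its windows with Ifit1bl2.

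Oasl2 encodes a relative of the oligoadenylate synthetases and lies at chr5:114896936-114912234 on the plus strand. It had 34 counts in replicate 1 and 23 in replicate 2, yet 0.62 TPM in replicate 1 and 0.75 TPM in replicate 2, so counts and TPM point in opposite directions. The deposited interval for replicate 1, 0.744 to 1.61, lies above that TPM. Isg15, a ubiquitin-like protein that is joined to other proteins, lies at chr4:156199424-156200818 on the minus strand. It had 0 counts in replicate 1, which allows up to 0.182 TPM, and 4 counts (1.09 to 10.2) and 0.26 TPM in replicate 2. The second deposited quantification gave Isg15 1 and 2 counts. At this depth a difference between the libraries was not detectable for Isg15. The mean level of Isg15 was the lowest of all 9, at 0.13 ± 0.184 TPM, although in replicate 2 Ifit1 was lower, at 0.14 TPM.

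By mean TPM the order was Ifi27, Irf9, Ifitm3, Bst2, Ifit3, Oasl2, Irf7, Ifit1 and Isg15. The values of the 2 libraries overlap between neighbours for Irf7 and Ifit1 and for Ifit1 and Isg15. Within a library, the 95% counting intervals were apart for 5 of the 8 pairs of neighbours in replicate 1 and for 3 of 8 in replicate 2, and Ifi27 and Irf9 were the single pair apart in both. The 5 include Ifit1 and Isg15, where the upper end for 0 counts was set at 3 counts. That put Isg15 at 0.182 TPM at most, under the lower end of 0.188 TPM for Ifit1. The 95% Poisson limit of 0 counts is 3.69 counts, so the separation of this pair rests on that setting. The order was the same in the second deposited quantification. By the posterior mean TPM, Irf7 stood above Oasl2. With CPM, which keeps the effect of gene length, 4 of the 9 positions were the same.

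Effectors and signalling genes were then set against each other. The median of the 7 effectors was 1.83 TPM in replicate 1 and 1.43 TPM in replicate 2, against a mean of the 2 signalling genes of 2.71 and 2.83 TPM. The log2 ratio of effectors over signalling genes was -0.56 in replicate 1 and -0.98 in replicate 2, a mean of -0.77 ± 0.30 (SD, n = 2). It depends on the summary chosen: with geometric means of TPM + 0.1 it was 0.14. The sum gives another picture, since Ifi27 alone exceeded both signalling genes together, and it is the single effector above Irf9 in either library.

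The transcripts behind these levels differ between genes. Ifit1, Ifit3, Isg15 and Ifitm3 have 1 annotated transcript each, which is protein-coding, so their counts could fall on no other. Bst2 has 2, and in the first quantification only the coding one had counts. The second quantification put 12.4% of Bst2 TPM on the other one in replicate 1, from 1 count, and 0% in replicate 2. Ifi27 has 9 annotated transcripts, of which 7 had counts. Its most abundant one was Ifi27-209, a transcript of 527 bases that is annotated as retaining an intron, with 38.4% of the gene's TPM in replicate 1 and 41.5% in replicate 2. Ifi27-206, with 19.7% and 20.8%, and Ifi27-208, with 8.38% and 10.7%, are also of this class. The 3 retained-intron transcripts of Ifi27 together held 66.4% of its TPM in replicate 1 and 72.9% in replicate 2, a mean of 69.7 ± 4.55%. The second quantification put the share at 55.5% and 56.0%, with Ifi27-209 again the leading transcript at 32.2% and 28.7%. Over the 7394 detected protein-coding genes that have such a transcript the median share was 10.3% and 9.09%, and Ifi27 stood above 98.3% and 99.0% of them. In the second quantification the median was 10.8% and 9.64%, and Ifi27 stood above 96.5% and 96.7% of these genes. These shares are of TPM, which weights short transcripts more than counts do. In expected counts the retained-intron transcripts of Ifi27 held 367 and 413, against 308 and 262 on its coding transcripts. The second quantification gave the retained-intron transcripts 197 and 203 counts, fewer than the 384 and 382 on coding transcripts. The coding transcripts of Ifi27, led by Ifi27-205 with 15.9% and 13.2% of the gene and Ifi27-201 with 13.8% and 11.9%, came to 15.7 and 14.1 TPM. In the second quantification Ifi27-201 led the coding transcripts, with 25.0% and 27.2%, and Ifi27-205 had 17.0% and 15.4%. On coding transcripts alone Ifi27 was therefore still the most abundant of the 9 genes.

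For Irf9, retained-intron transcripts held 38.9% and 28.6% of TPM, above 90.3% and 83.6% of the same genes. In the second quantification they held 36.3% and 37.5%, above 87.6% and 89.4%. In the first quantification the coding Irf9-203 led, with 45.5% and 58.7%. It was followed by the retained-intron Irf9-204, with 27.3% and 21.7%, and the coding Irf9-202, with 13.5% and 12.9%. The second quantification gave Irf9-202 no counts in replicate 1 and nearly none in replicate 2, and Irf9-203 63.7% and 60.9%. Oasl2 was split differently by each quantification: Oasl2-205, annotated as a target of nonsense-mediated decay, held 74.2% and 56.9% of TPM in the first and 15.3% and 34.7% in the second. Oasl2-201 held 22.7% in replicate 1 and none in replicate 2, where Oasl2-207, of 632 bases, held 43.1%. For Irf7, all 8 counts of replicate 1 went to the coding Irf7-201. In replicate 2, 11.3 counts went to the coding Irf7-202 and 2.71 to the retained-intron Irf7-209, of 559 bases, which held 46.5% of the gene's TPM. The second quantification instead put 56.6% and 49.2% of Irf7 TPM on Irf7-201. The gap in Irf7 TPM between the libraries goes together with this assignment of a few counts to a short transcript.

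**Figure D3:**
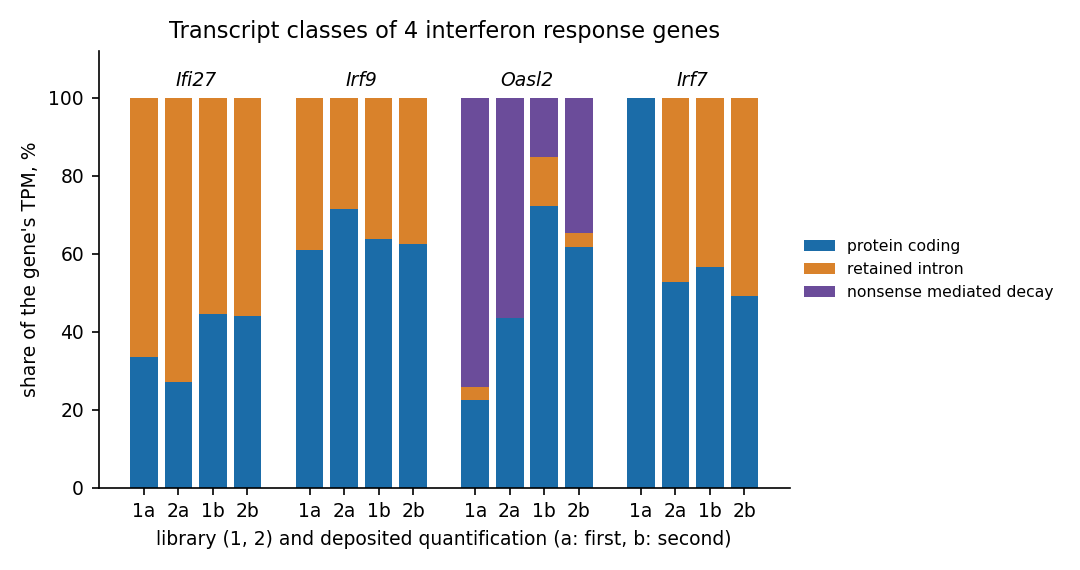
Share of each gene's TPM, in percent, on protein-coding, retained-intron and nonsense-mediated decay transcripts of Ifi27, Irf9, Oasl2 and Irf7, for replicates 1 and 2 in the first (a) and second (b) deposited quantification. Retained-intron transcripts exceed 50% in all 4 bars of Ifi27, and the classes of Oasl2 and Irf7 change with the quantification.

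Between the libraries, the ratio of counts was taken after TMM scaling, replicate 1 over replicate 2. A mean CPM of at least 1 was reached by Ifi27, Irf9, Ifitm3, Bst2 and Ifit3. None of these 5 differed 1.5-fold or more, where 2.26% of all 14887 genes tested did, and 11.5% of those with at most 200 counts over both libraries. Ifi27 had a ratio of 0.950 (95% counting interval 0.852 to 1.06) and Irf9 one of 0.936 (0.790 to 1.11). Ifitm3 stood at 0.892 (0.583 to 1.36), Bst2 at 0.838 (0.523 to 1.33) and Ifit3 at 1.33 (0.931 to 1.93). The log2 ratios of Ifi27, Irf9 and Ifitm3, -0.07, -0.10 and -0.16, turned positive with spike-in scaling, at 0.10, 0.08 and 0.01, where the median of all genes tested moved by 0.18. That of Ifitm3 was also positive in the second quantification, at 0.05. Of the 4 genes under the minimum, Ifit1 had a ratio of 2.29 with an interval of 1.00 to 6.23, Oasl2 1.40 (0.803 to 2.50) and Irf7 0.558 (0.197 to 1.39). Irf9 was higher in TPM and lower in scaled counts in replicate 1. In TPM, 3 of the 9 genes were higher in replicate 1 (Irf9, Ifit3 and Ifit1) and 6 in replicate 2.

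**Figure D4:**
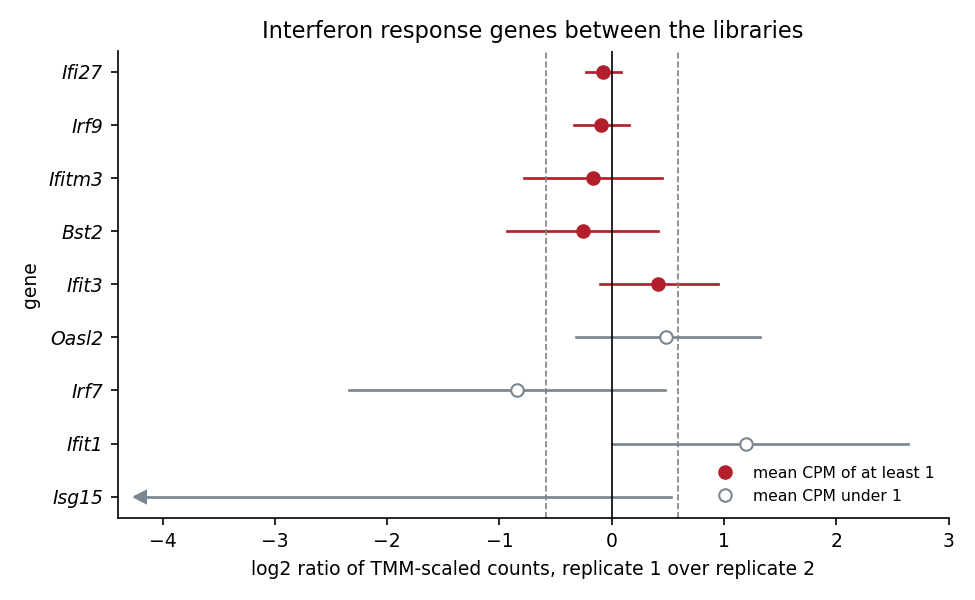
Log2 ratio of TMM-scaled counts, replicate 1 over replicate 2, with 95% counting intervals, for the 9 genes. Filled red points have a mean CPM of at least 1, open grey points less, dashed lines mark 1.5-fold, and Isg15, with 0 counts in replicate 1, is shown by its interval only, whose lower end is unbounded.

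The rest of the pathway was read from lists by role. Of 91 other genes, 42 were detected in both libraries, a smaller share than the 57.5% of all protein-coding genes. By list the share ran from 0% of the listed interferon genes and 36.1% of other effectors to 83.3% of receptor genes and 100% of JAK and STAT genes. None of the interferon genes on the list was detected: 12 of 13 had 0 counts in both libraries, and Ifnab had 1 count in replicate 2. Interferon genes outside this list were not examined. Of the receptor chains 5 of 6 were detected, with a list median of 8.19 and 8.64 TPM. Ifngr2 stood at 20.1 and 21.5 TPM and Ifngr1 at 7.37 and 8.55 TPM, the chains that bind interferon gamma. Ifnar1 stood at 17.5 and 17.8 TPM and Ifnar2 at 9.0 and 8.73 TPM. Il10rb, shared by the receptors for interferon lambda and interleukin-10, stood at 3.07 TPM in both libraries. Ifnlr1, the chain specific to interferon lambda, had 7 counts and 0.07 TPM in each.

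All 6 JAK and STAT genes were detected, with a median of 12.5 and 11.3 TPM. The kinase Jak1 was highest at 49.5 and 54.3 TPM, and Tyk2 lowest at 6.04 and 5.24 TPM. Jak2, which serves the receptor for interferon gamma, stood at 12.2 TPM in both libraries, and Stat3, better known from interleukin-6 signalling, at 14.1 and 16.6 TPM. Stat2, which binds Irf9 in ISGF3, stood at 12.7 and 10.4 TPM, and Irf9 was 0.413 and 0.491 times as abundant as Stat2. In the IRF family 6 of 9 genes were detected. Irf2, which competes with activating family members, stood at 28.7 and 24.0 TPM, and Irf3, the factor activated first by sensors of viral nucleic acid, at 17.2 and 18.8 TPM. Irf9 ranked next, followed by Irf1 at 3.69 and 3.72 TPM, the mainly myeloid Irf5 at 1.72 and 1.55 TPM and Irf8 at 1.46 and 1.62 TPM. Irf3 was 95.7 and 34.2 times as abundant as Irf7, 77.1 and 52.5 times in the second quantification and 18.6 and 14.7 times by the posterior mean.

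Of 15 sensor and adaptor genes 8 were detected, with a median of 1.26 and 1.35 TPM. The kinase Tbk1 led at 20.8 and 19.6 TPM, followed by Mavs, Tlr3 and Ticam1 between 2.64 and 4.14 TPM. Of 8 genes that restrain the response 5 were detected. Adar, which edits double-stranded RNA, stood at 46.3 and 53.1 TPM and Pias1, which inhibits STAT proteins, at 26.8 and 30.8 TPM. Irf2bp1, a corepressor, stood at 21.2 and 23.8 TPM, the nuclease Trex1 at 5.74 and 6.45 TPM and Samhd1, which depletes nucleotides, at 4.70 and 5.34 TPM. Usp18, which removes Isg15 from proteins and is itself a target of interferon, had 5 counts in each library, at 0.12 and 0.14 TPM. Of 5 genes of the Isg15 system 3 were detected: the ligase Herc6 at 3.01 and 2.19 TPM, the activating enzyme Uba7 at 2.33 and 1.5 TPM and the conjugating enzyme Ube2l6 at 1.89 and 3.18 TPM. Isg15 was thus near 0 where all 3 enzymes that attach it were above 1 TPM.

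**Figure D5:**
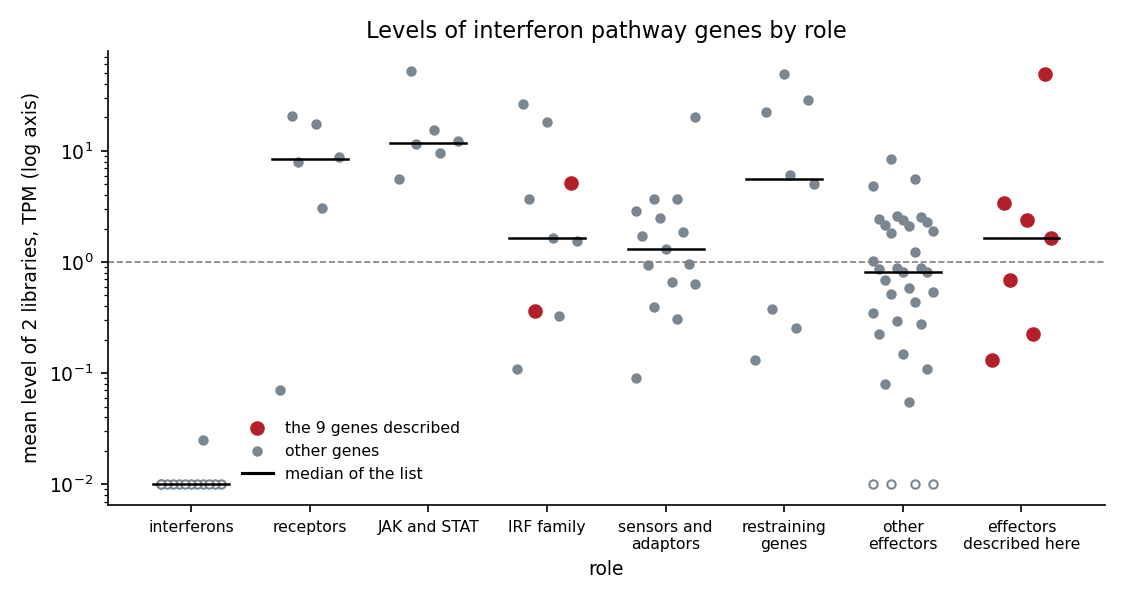
Mean TPM of the 2 libraries (log axis) for interferon pathway genes by role, each point 1 gene, red for the 9 genes described and grey for others, with a black line at the list median and a dashed line at 1 TPM. Open points lie below 0.01 TPM. The 13 listed interferon genes sit at the bottom, while all 6 JAK and STAT genes and 5 of 6 receptor genes lie above 1 TPM.

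Of 36 other effectors 13 were detected, with a list median of 0.84 and 0.715 TPM, below that of the 7 effectors above. The highest were Lgals3bp, a secreted glycoprotein, at 7.21 and 9.75 TPM, the mitochondrial nucleotide kinase Cmpk2 at 5.73 and 5.53 TPM, Ifitm2 at 5.09 and 4.52 TPM and Herc6. Among family partners, Ifit2 was 1.03 and 1.64 times as abundant as Ifit3. Ifitm3 was 0.623 and 0.812 times Ifitm2, while the second quantification put the ratio at 1.03 and 0.908. Ifitm1 stood at 0.69 and 0.38 TPM, with 8 and 4 counts, and Oasl1 at 0.06 and 0.16 TPM, with 1 and 2 counts. Of the 50 other pathway genes that reached the minimum CPM, 2 differed 1.5-fold or more, both higher in replicate 1. The share was 2.26% over all genes tested and 11.5% over those with at most 200 counts over both libraries, Mx2 among them. Of all genes that differed, 61.3% were higher in replicate 1. Trim25, which activates the sensor encoded by Ddx58, had 171 and 91 counts, a ratio of 1.78 (1.38 to 2.33), and Mx2, annotated as a polymorphic pseudogene in the C57BL/6J assembly, had 61.6 and 38.9 expected counts, a ratio of 1.5 (0.995 to 2.31).

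Markers of resident cell types that can respond to interferon were present in both libraries. All 9 microglia markers were detected, with a summed level of 153 and 164 TPM, and all 8 endothelial markers, with 76.2 and 77.2 TPM. All 6 astrocyte markers were detected too, with a summed level of 1506 and 1542 TPM. Lymphocyte markers were close to 0, with 0 of 7 detected and 4 and 6 counts in all, and of the 6 neutrophil and monocyte markers none was detected, at a summed 0.16 and 0.39 TPM. Of 5 perivascular macrophage markers none reached 1 TPM in both libraries, at a summed 3.40 and 2.88 TPM, but they were present, with 262 and 191 counts in all. All 5 red blood cell markers were detected, at 349.8 and 308.7 TPM. The choroid plexus markers were the list that differed most, and the level of Ttr, their most abundant gene, was 29.9 TPM in replicate 1 and 672 TPM in replicate 2. Ifi27, Ifitm3 and Bst2 also had a higher TPM in replicate 2, though by far less than the choroid plexus genes. Irf9 and Ifit3, which were detected too, went the other way in TPM. In scaled counts Irf9 was lower in replicate 1, with a ratio of 0.936. The scaled count ratios of Ifi27, Irf9, Ifitm3 and Bst2 had counting intervals that include 1. With spike-in scaling the log2 ratio, replicate 1 over replicate 2, was 0.10 for Ifi27, 0.08 for Irf9, 0.01 for Ifitm3 and -0.08 for Bst2. The part of choroid plexus tissue in these levels was not tested.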

How the data were processed

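Per the file headers and deposited notes, the authors gave for each library a gene table and a first transcript table, from an alignment to the transcriptome, with an expected count and TPM, and a second transcript table with an estimated count and TPM. The share of a gene's expression on each transcript was deposited as a percent, a posterior mean TPM and its interval were deposited too, and shares over transcript classes were summed here from TPM. The assembly was mm10 with GENCODE M21; the sources used here name no tool or version for the tables and do not state the use of strand in counting. Since mm10 is a C57BL/6J genome, CAST/EiJ reads may align less well. Spike-in, phiX and number-only rows, 0.418% and 0.479% of counts, stayed out of library sizes.

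The genes and lists were chosen with earlier results of these data known. Named are all 9 genes, their transcripts with at least 10% of the gene's TPM, the up to 4 highest genes of each pathway list and all detected ones of short lists, and family partners; transcripts that pass only in the second table are not all named. The markers behind the cell type sums were not named singly, Ttr excepted. The values of 1 gene that this rule takes are not reported here. Trim25, Mx2, Ifnlr1 and Ifnab were named after their values were seen.

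Expected counts were rounded and scaled by TMM in edgeR 4.0.16 (R 4.3.3), with a prior count of 0.5 and a minimum mean CPM of 1; DESeq2 1.42.0 size factors were an alternative. Intervals are 95% Poisson (TPM scaled alike) or Clopper-Pearson intervals and, like floors of 3 counts, cover counting error only. At 0 counts the floor was used as the upper end in TPM. The libraries differed beyond counting noise (chi-square per degree of freedom 7.80 over 19816 genes) and are not copies. Shared sequence was counted in 75-base windows of the longest coding transcript. The ratio step was run on simulated data as a check of the code, with changes placed only in genes above the minimum CPM. That check does not cover genes under the minimum. Python 3.11.15 was used, with numpy 2.4.6, pandas 2.3.3, scipy 1.17.1 and matplotlib 3.10.9.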

Additional observations from a re-analysis of the deposited data

How the results depend on the processing

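No paired analysis was possible because the labels give 1 group. The log2 ratio of effectors over signalling genes, -0.77, was -1.88 in CPM, -1.26 without Ifi27, -1.06 with the deposited posterior mean TPM, -0.72 in the second quantification and 0.14 with geometric means, a reversal; leaving out each replicate gave -0.98 to -0.56. The cause was not tested. The count of genes differing 1.5-fold, 0, was 1 with spike-in scaling (Ifit3), 1 in the second quantification (Oasl2), 3 with no minimum CPM (Irf7, Ifit1 and Isg15, where 29.0% of all genes differed) and 1 at a lower fold threshold (Ifit3, against 8.40%). It stayed 0 with DESeq2 size factors, total counts, a prior count of 2, a minimum of 0.5 CPM and a 2-fold threshold. Spike-in scaling moved the share of differing genes that were higher in replicate 1 to 87.1%, from 61.3% with TMM. Detected genes numbered 5 in the second quantification, at 30 counts in both libraries (chosen after seeing the data) and with either replicate left out, 6 after rescaling to protein-coding nuclear genes or at 0.5 TPM, and 4 at 2 TPM. Detection by the posterior mean TPM, also chosen after seeing the data, added Oasl2, for 6. The 42 other pathway genes, with 57.5% of protein-coding genes, became 51 (61.0%) in the second quantification, 54 (62.0%) after rescaling, 46 (59.2%) by the posterior mean and 42 to 46 with a replicate left out (58.5% and 58.2%). Of 121 further values for single genes, list medians and transcript shares, 32 moved beyond their spread, 31 upwards, and 1 downwards, the retained-intron share of Ifi27. For ratios between the libraries the counting interval served as the spread. The 121 include values with a replicate left out, which with 2 libraries could not move beyond the spread, so the share that moved is not a measure of stability. TPM itself was higher in the second quantification, by a median factor of 1.63 and 1.62 over genes, and rescaling multiplied every TPM by 2.45 and 2.35. By the posterior mean, Oasl2 averaged 1.14 and Irf7 1.18. Depth limits Irf7, Ifit1 and Isg15, whose counts are 20.1 or fewer.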
